A study of Mus musculus with 18 samples.

Results

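Slc4a1, Rhag, Ermap, Sptb, Tspo2, Bpgm, Car1 and Car2 are 8 genes of the red-cell membrane and of gas transport, and they were taken by symbol from 12 spots of a mouse cDNA array. They were 8 of 10001 named genes with a value, and all 8 were among the 10272 units tested (6945 named genes and 3327 single spots without 1 gene name). The samples were mouse hearts of 3 conditions, chronic constant hypoxia (CCH), chronic intermittent hypoxia (CIH) and control, each at 1, 2 and 4 weeks. Each of the 18 arrays set cDNA of a male heart, labelled with Cy5, against cDNA of a female heart of the same condition and duration, labelled with Cy3. Each of the 9 groups had 2 arrays, which limits how precise any value can be. Strain, age, oxygen level and whether arrays within a group used different animals are not given in the labels, so the errors measure the spread between arrays, which may be technical.

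Every value is a log2 ratio of male over female heart signal after each array was centred on its median. A difference between conditions is therefore a difference in that ratio, and it does not show in which sex a transcript differed. In whole hearts, fewer red cells and less RNA per red cell cannot be told apart. The genes were chosen by symbol after their log2 ratios on these arrays had been seen, so the ratios and differences are given as a description, with standard errors. Counts of these genes called by limma, or past an unadjusted p, stand beside the share of all units that did the same, and nothing is read from them.

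Mature mouse red cells have no nucleus, and their remaining transcripts lie mostly in reticulocytes, the youngest circulating red cells. The membrane is held by a spectrin network that is tied to the anion exchanger band 3, the protein of Slc4a1. Carbonic anhydrases turn carbon dioxide into bicarbonate, band 3 exchanges the bicarbonate for chloride, and the product of bisphosphoglycerate mutase (Bpgm) lowers the oxygen affinity of haemoglobin. Blood left in a heart brings such transcripts into a heart sample.

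That the ratio runs male over female was read from Eif2s3y, a Y-linked gene of a translation initiation factor, which was positive on 17 of 18 arrays. On CIH 4 weeks replicate 1 it was at -0.03, from 1 of its 2 spots, so the direction of that array was not settled by it. That spot read -0.15 to 1.68 on the other arrays. Values with the sign of that array turned are given beside the results that rest on it, an alternative chosen after the data were seen. The title of CIH 1 week replicate 1 gives 1 week of CIH while its source names 2 weeks of CCH, and control 2 weeks replicate 1 carries the code of a 1-week array. Both were kept as titled. The SD of all units on an array was 0.224 to 0.662, with the highest on CCH 4 weeks replicate 1. Cardiomyocyte genes could not serve as a check of the tissue, because a ratio within an array holds no level.

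The red-cell promoters are shown because Ermap and Tspo2 had like ratios across the arrays, as given further on, with Rhag nearest to Tspo2, while Bpgm followed another course. RefSeq promoters (build GRCm38.p6) were found for 5 of the 8 genes, and Slc4a1, Car1 and Car2 had no entry. The window of Sptb was searched like the others and is not printed. The 250 bases before the start were searched on both strands for AGATAA and TGATAA, letters that GATA factors such as the erythroid regulator GATA1 can bind, and for CCACCC, a core that the erythroid factor KLF1 can bind. Capitals mark the matches, and matches on the opposite strand appear as TTATCA or GGGTGG.
Rhag (chr17:40810899-40811148, plus strand): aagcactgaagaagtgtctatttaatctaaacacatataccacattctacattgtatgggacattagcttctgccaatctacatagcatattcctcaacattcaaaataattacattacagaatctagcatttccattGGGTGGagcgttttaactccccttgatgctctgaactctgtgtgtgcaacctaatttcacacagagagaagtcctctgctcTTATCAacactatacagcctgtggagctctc
Ermap (chr4:119189996-119190245, minus strand): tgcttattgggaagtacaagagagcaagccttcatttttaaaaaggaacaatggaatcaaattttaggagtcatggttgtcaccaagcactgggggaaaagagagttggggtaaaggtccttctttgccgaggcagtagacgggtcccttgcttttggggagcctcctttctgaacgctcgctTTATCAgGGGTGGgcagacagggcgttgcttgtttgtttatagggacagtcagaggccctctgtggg
Tspo2 (chr17:48451502-48451751, minus strand): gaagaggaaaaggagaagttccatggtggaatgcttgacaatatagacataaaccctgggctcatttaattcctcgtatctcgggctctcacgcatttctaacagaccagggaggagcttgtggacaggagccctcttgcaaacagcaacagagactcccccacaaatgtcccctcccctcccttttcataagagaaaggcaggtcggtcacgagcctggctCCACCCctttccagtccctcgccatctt
Bpgm (chr6:34476106-34476355, plus strand): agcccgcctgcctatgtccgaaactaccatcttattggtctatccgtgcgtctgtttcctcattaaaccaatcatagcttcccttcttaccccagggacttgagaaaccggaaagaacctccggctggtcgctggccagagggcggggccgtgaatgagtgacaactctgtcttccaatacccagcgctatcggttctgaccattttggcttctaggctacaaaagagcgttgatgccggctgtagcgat
TGATAA began 31 bases before the start of Rhag and 67 bases before that of Ermap, as read on the printed strand. CCACCC stood at 112 bases in Rhag, at 60 bases in Ermap, where a single base separated it from TGATAA, at 28 bases in Tspo2 and at 96 bases in Sptb. In the Bpgm window none of the 3 motifs was found. Of 32851 promoter windows of the same length, 16.6% held AGATAA or TGATAA and 28.1% held CCACCC. These matches are letters in a window and were not tested as binding sites.

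Slc4a1, the band 3 gene, had the widest ratios of the 8 genes. Its mean log2 ratios on the CCH arrays were 1.19 and 0.26 at 1 week, -2.01 and -0.14 at 2 weeks, and 1.78 and -0.13 at 4 weeks. On the CIH arrays they were -1.25 and -0.11 at 1 week, -1.34 and -2.44 at 2 weeks, and -1.91 and -1.66 at 4 weeks. The control arrays read -0.28 and -0.09 at 1 week, -0.35 and 0.37 at 2 weeks, and 1.20 and 0.91 at 4 weeks. All 6 CIH arrays were below 0, and at 2 and 4 weeks both CIH arrays lay below both control arrays. With the sign of CIH 4 weeks replicate 1 turned, that array would read 1.91, and neither the count of 6 nor the separation at 4 weeks would hold. The CCH arrays covered most of the range on their own, with a gap of more than 1 log2 unit between the arrays of 2 weeks and of 4 weeks. On CIH 4 weeks replicate 2 only 5 of 10037 units were lower than Slc4a1, and on CCH 4 weeks replicate 1 only 31 of 9966 were higher.

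Slc4a1 was read by 3 spots, which had the same sign on every array where 2 of them had a value. Their Pearson r over 16 or 17 arrays was 0.98, 0.92 and 0.86 (Spearman rho 0.94, 0.93 and 0.95). The largest gap was on CCH 4 weeks replicate 1, where spot 11777 read 0.60 while spots 11890 and 25479 read 2.30 and 2.45. The mean difference between CIH and control was -1.40, -1.70 and -2.17 by spot.

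**Figure D1:**
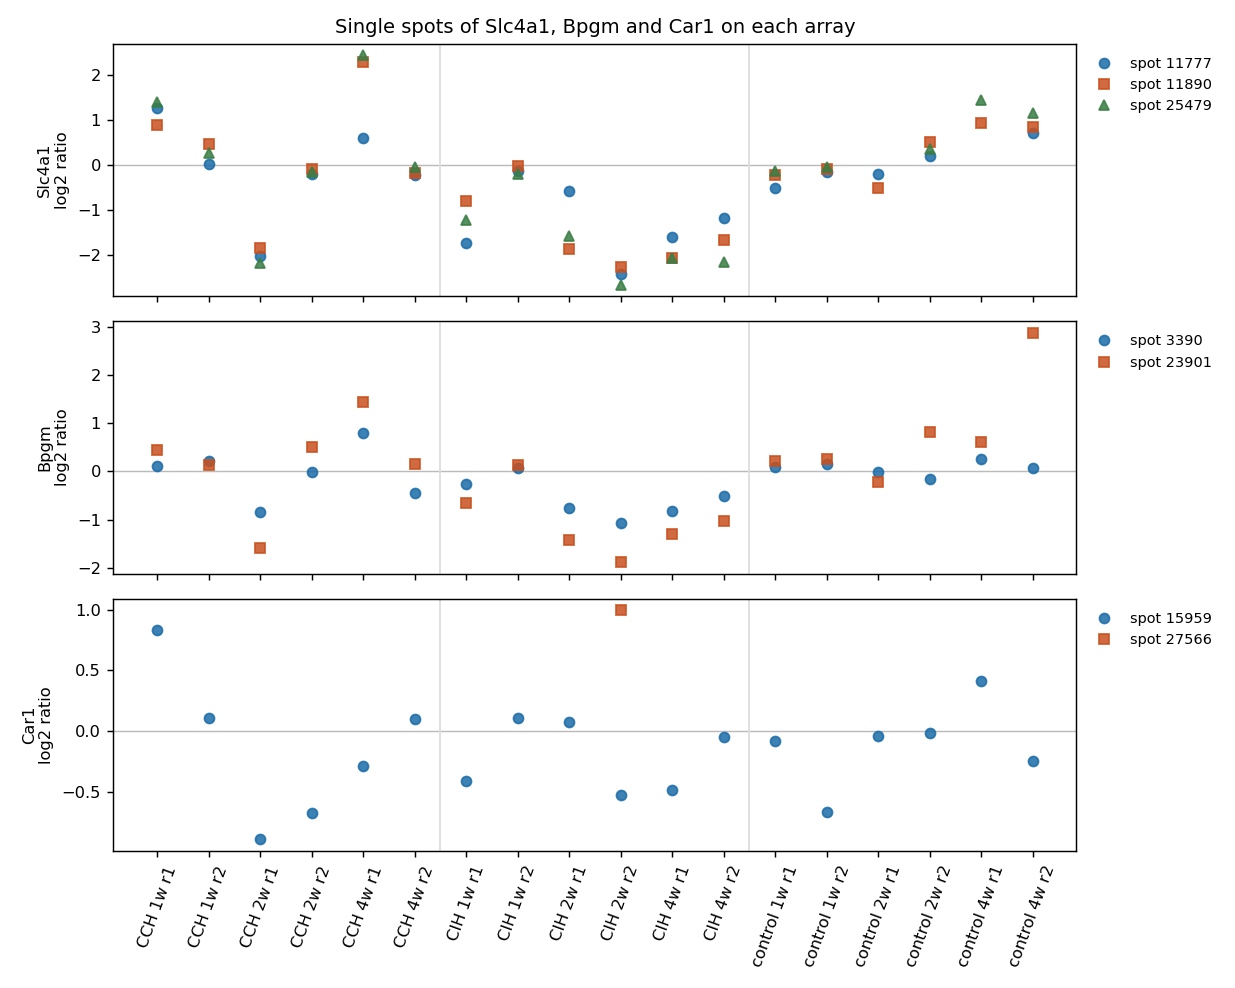
Log2 ratio of male over female on each of the 18 arrays (x axis, CCH, CIH and control arrays from left to right) for the single spots of Slc4a1, Bpgm and Car1. The 3 Slc4a1 spots keep together apart from spot 11777 on CCH 4 weeks replicate 1, spot 23901 of Bpgm stands at 2.88 on control 4 weeks replicate 2, and the second Car1 spot has a value on 1 array.

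Bpgm, whose enzyme makes bisphosphoglycerate in red cells, followed Slc4a1 at a smaller size. Its gene means were 0.28 and 0.17 (1 week), -1.22 and 0.25 (2 weeks) and 1.13 and -0.14 (4 weeks) on the CCH arrays. The CIH arrays gave -0.45 and 0.10, then -1.09 and -1.47, then -1.06 and -0.77 at the same durations, against 0.15 and 0.20, -0.12 and 0.33, and 0.44 and 1.48 on the control arrays. At each of the 3 durations both CIH arrays were below both control arrays, at 4 weeks only as long as CIH 4 weeks replicate 1 is not turned. The highest control value rested on 1 of its 2 spots: on control 4 weeks replicate 2, spot 23901 read 2.88 and spot 3390 read 0.07, a gap of 2.81. Across 18 arrays the spots had a Pearson r of 0.79 (Spearman rho 0.77) and the same sign on 15. The mean difference between CIH and control was -1.78 for spot 23901 and -0.63 for spot 3390.

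Car2, a fast cytosolic carbonic anhydrase that is also made outside red cells, had 1 spot with a value on 15 of 18 arrays. The CCH arrays read 0.46 and 0.31 at 1 week and -1.90 and -0.08 at 2 weeks, and the single 4-week value was 1.23. Of the CIH arrays, those of 1 week read -1.13 and 0.27, and the single values of 2 and 4 weeks were -1.11 and -2.22. Control ratios stayed between -0.44 and 0.32, with -0.04 and 0.05 at 1 week, -0.44 and 0.32 at 2 weeks, and 0.02 and -0.23 at 4 weeks. The value of CIH 4 weeks replicate 2 was the second lowest of 10037 units on that array. Spots without a value were dropped from the fit and not imputed, so the Car2 means of CIH at 2 and at 4 weeks and of CCH at 4 weeks each rest on 1 array.

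**Figure D2:**
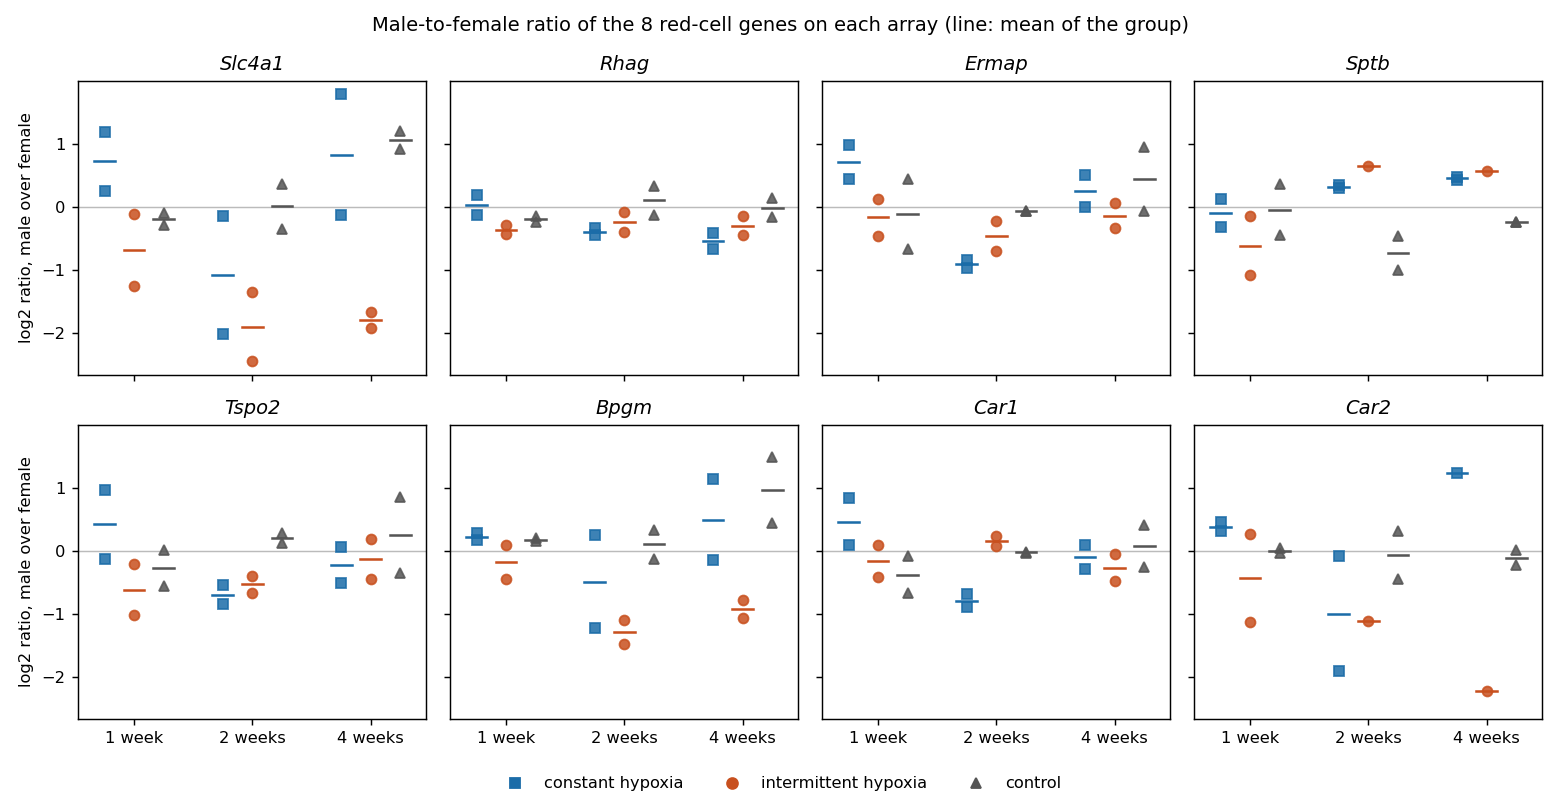
Log2 ratio of male over female (y axis) of the 8 genes on each array, by duration (x axis), with CCH, CIH and control side by side. Points are arrays and lines are means of a group. Slc4a1, Bpgm and Car2 reach below -1 on CIH arrays of 2 weeks, while Rhag stays between -0.66 and 0.33.

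Of the membrane genes other than Slc4a1, Ermap, an erythroid membrane protein of the immunoglobulin superfamily, was highest on CCH arrays of 1 week and lowest on those of 2 weeks. The CCH arrays read 0.98 and 0.44, then -0.96 and -0.84, then 0.00 and 0.50 at 1, 2 and 4 weeks. On CIH arrays the ratios were -0.46 and 0.13, -0.22 and -0.69, and -0.33 and 0.06, against control ratios of 0.44 and -0.66, -0.07 and -0.07, and 0.95 and -0.06. Both CCH arrays were above both controls at 1 week (narrowly, 0.4401 against 0.4356) and below both at 2 weeks, while at 4 weeks the groups overlapped.

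Tspo2, an erythroid relative of the mitochondrial translocator protein, had a like course. It stood at 0.97 and -0.13, -0.54 and -0.84, and -0.51 and 0.06 on the CCH arrays of 1, 2 and 4 weeks. The ratios were -1.01 and -0.21, -0.40 and -0.66, and -0.44 and 0.19 on the CIH arrays, and 0.02 and -0.56, 0.13 and 0.29, and 0.85 and -0.35 on the control arrays. Both kinds of hypoxia lay below both controls at 2 weeks, and at 1 and 4 weeks they overlapped with them.

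Rhag, the Rh-associated glycoprotein, which carries ammonia across the membrane, had narrow ratios, with an SD over arrays of 0.252 that was lower than that of most units (median 0.332). On the CCH arrays of 1, 2 and 4 weeks it read 0.19 and -0.13, -0.34 and -0.45, and -0.66 and -0.41. The CIH arrays gave -0.29 and -0.43, -0.08 and -0.40, and -0.44 and -0.15, and the control arrays -0.14 and -0.23, -0.12 and 0.33, and 0.14 and -0.16. Rhag was below 0 on 5 of 6 CCH arrays and on each of the 6 CIH arrays, of which CIH 4 weeks replicate 1 would read 0.44 if turned. At 2 and 4 weeks both CCH arrays lay below both controls.

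Sptb, the beta chain of red-cell spectrin, which muscle also expresses, was higher in hypoxia at 2 and 4 weeks. It read 0.12 and -0.31, 0.34 and 0.30, and 0.43 and 0.48 on the CCH arrays of 1, 2 and 4 weeks. The CIH arrays gave -1.08 and -0.15 at 1 week and single values of 0.64 and 0.57 at 2 and 4 weeks, against control ratios of 0.36 and -0.44, -0.46 and -1.0, and -0.23 and -0.23. At 2 and 4 weeks each hypoxic array with a value was above 0 and each control array was below 0, though CIH 4 weeks replicate 1 would read -0.57 if turned.

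Car1, the other carbonic anhydrase of red cells, which lies beside Car2 in the mouse genome with 1 coding gene (Car3) between them, did not share the Car2 values. Its gene means on the CCH arrays of 1, 2 and 4 weeks were 0.83 and 0.10, -0.89 and -0.68, and -0.29 and 0.10. On CIH arrays they were -0.41 and 0.10, 0.07 and 0.24, and -0.48 and -0.05, and on control arrays -0.08 and -0.67, -0.04 and -0.01, and 0.41 and -0.25. As for Ermap, both CCH arrays were above both controls at 1 week and below both at 2 weeks. The 0.24 on CIH 2 weeks replicate 2 averages 2 spots that disagreed, -0.52 at spot 15959 and 0.99 at spot 27566, which had no other value.

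Constant hypoxia against control asks whether CCH shifted the male-to-female ratio of these genes. Averaged over the 3 durations, 6 of 8 genes were lower in CCH, beside 57.1% of all units. The median difference was -0.10 against -0.036 for all units. The Sptb difference was 0.56 ± 0.19 (SE, n = 16 arrays in the fit), Rhag was at -0.27 ± 0.13 and Bpgm at -0.33 ± 0.27 (SE, n = 18 each). The other 5 lay between -0.23 ± 0.25 for Tspo2 and 0.26 ± 0.33 for Car2 (SE, n = 18 and 15). By limma (adjusted p under 0.05) 0 of the 8 genes and 0 of 10272 units were called (0%). At an unadjusted p under 0.05 there were 1 of the 8 (Sptb) and 649 units (6.32%).

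The CCH mean joins durations with values of opposite sign. At 1 week 5 of 8 genes had both CCH arrays above both control arrays, beside 20% of all units, and 0 had both below, beside 19.5%. These were Slc4a1, Rhag, Ermap, Car1 and Car2, and the median difference of the 8 genes was 0.54 against 0.025 for all units. The separation was narrow for Ermap and Rhag. CCH replicate 2 read 0.4401 and -0.1257 for them, against 0.4356 and -0.1387 on control replicate 1. Liver markers were also above 0 at 1 week, with 3 of 3 tested genes of 4 and a median of 1.35. On CCH 1 week replicate 1, where all 8 genes were above 0, the albumin gene Alb read 5.67, Ttr 2.31 and Apoa1 0.83, against -2.65, -0.68 and -0.20 on replicate 2. Their part in the result was not tested. At 2 weeks 4 of 8 genes (Rhag, Ermap, Tspo2 and Car1) had both CCH arrays below both controls, beside 33.5% of all units, with a median difference of -0.79 against -0.05. Sptb was the 1 gene above both controls, beside 24.8% of all units. At 4 weeks 1 of the 7 genes with all values was below (Rhag, beside 22.7%) and 1 above (Sptb, beside 15.9%). At single durations limma called 0 of the 8 genes, beside 0%, 0.0195% and 0% of all units at 1, 2 and 4 weeks, while 2, 4 and 1 of them had an unadjusted p under 0.05, beside 6.15%, 9.38% and 15.1% of all units. Slc4a1, Bpgm and Car2 at 2 weeks rested on 1 array: replicate 1 read -2.01, -1.22 and -1.90, and replicate 2 read -0.14, 0.25 and -0.08.

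Intermittent hypoxia against control gave lower ratios for Slc4a1, Bpgm and Car2. The mean difference over the 3 durations was -1.74 ± 0.37 for Slc4a1 (0.298-fold; SE, n = 18), -1.20 ± 0.27 for Bpgm (0.434-fold; SE, n = 18) and -1.20 ± 0.36 for Car2 (0.436-fold; SE, n = 15). Counted from the lowest of 10272 units, Slc4a1 stood at position 4, Bpgm at 71 and Car2 at 72. With CIH 4 weeks replicate 1 turned, Slc4a1 was at -1.11 ± 0.53 (position 18), Bpgm at -0.85 ± 0.33 (position 83) and Sptb at 0.15 ± 0.22 (SE). The differences of Tspo2, Ermap and Rhag were -0.48 ± 0.25, -0.34 ± 0.22 and -0.27 ± 0.13 (SE, n = 18 each). Sptb was higher, by 0.53 ± 0.22 (SE, n = 16), and Car1 was at 0.02 ± 0.18, or at -0.11 ± 0.19 from spot 15959 alone. With CIH 4 weeks replicate 1 turned, Tspo2, Ermap, Rhag and Car1 were at -0.34, -0.23, -0.12 and 0.18. The median of the 8 genes was -0.41 against -0.007 for all units. By limma 0 of the 8 were called, beside 0.00974% of all units (1 of 10272), and 4 had an unadjusted p under 0.05 (Slc4a1, Bpgm, Car2 and Sptb), beside 12.7%.

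The number of calls in the CIH comparison moved with the processing and with single arrays. With the replicate block, no centring, the median of spots, each spot on its own or units on all arrays, limma called Slc4a1 and Bpgm, among 169, 192, 115, 199 and 109 units. Without CCH 2 weeks replicate 1, or without CCH 2 weeks replicate 2, limma called 3 of the 8 genes (Slc4a1, Bpgm and Car2), and without CIH 1 week replicate 2 or control 2 weeks replicate 1 it called 2 (Slc4a1 and Bpgm). The calls over all units moved with it, to between 1 and 305 of the units tested when 1 array was left out. The Slc4a1 difference itself stayed between -1.93 and -1.56, Bpgm between -1.38 and -1.03 and Car2 between -1.43 and -0.96. Without CIH 4 weeks replicate 1, whose direction Eif2s3y did not settle, Slc4a1 was at -1.70 and Bpgm at -1.16. Without both arrays whose labels disagree, they were at -1.67 and -1.19.

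By duration, the CIH difference of Slc4a1 was -0.50 ± 0.64 at 1 week, -1.90 ± 0.64 at 2 weeks and -2.84 ± 0.64 at 4 weeks (SE, 2 arrays per group), the lowest of 10272 units at 4 weeks. With CIH 4 weeks replicate 1 turned, the 4-week difference was -0.93 ± 0.91 for Slc4a1 (position 232) and -0.81 ± 0.57 for Bpgm, and that of Sptb was -0.34, against 0.80 as reported. For Bpgm it was -0.35, -1.39 and -1.87 (SE 0.47 each) and for Car2 -0.43 (SE 0.54), -1.04 and -2.12 (SE 0.66 each). At 4 weeks part of the difference lay in the controls, which read 1.20 and 0.91 for Slc4a1. Both CIH arrays were below both controls for 2 of 8 genes at 1 week (Rhag and Bpgm, beside 13.8% of all units), and above both for 0, beside 11.9%. At 2 weeks that held for 4 of the 6 genes with all values (Slc4a1, Ermap, Tspo2 and Bpgm, beside 35.7%), and at 4 weeks for 2 of 6 (Slc4a1 and Bpgm, beside 13.2%). Above both controls there was 1 of 6 genes at 2 weeks, Car1, beside 28.8%, and 0 of 6 at 4 weeks, beside 11.7%. Limma called 0 of the 8 at each duration, beside 0%, 0.00974% and 0% of all units, and 0, 3 and 3 had an unadjusted p under 0.05, beside 2.34%, 22.7% and 8.14%. Without CCH 2 weeks replicate 1, Slc4a1 and Bpgm were called at 4 weeks, among 162 of 10201 units, and without replicate 2 among 155 of 10135.

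Constant against intermittent hypoxia set the same genes apart. Slc4a1 was higher in CCH than in CIH by 1.61 ± 0.37 (3.05-fold; SE, n = 18), Car2 by 1.46 ± 0.38 (2.75-fold; SE, n = 15) and Bpgm by 0.87 ± 0.27 (1.83-fold; SE, n = 18). From the top of 10272 units these were positions 3, 9 and 144. With CIH 4 weeks replicate 1 turned, Slc4a1 was at 0.97 ± 0.53 and Bpgm at 0.52 ± 0.33, while Car2 had no value on that array. Ermap and Tspo2 were at 0.27 ± 0.22 and 0.26 ± 0.25, and Sptb, Rhag and Car1 lay at 0.03 ± 0.22, -0.00 ± 0.13 and -0.05 ± 0.18. By limma 0 of 8 genes and 1 of 10272 units (0.00974%) were called, and without CCH 2 weeks replicate 1 the 3 leading genes were called among 196 of 10201 units. At an unadjusted p under 0.05 there were 3 of the 8, beside 9.28% of all units. The 2 comparisons with control share the control arrays, so their values are not independent.

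**Figure D3:**
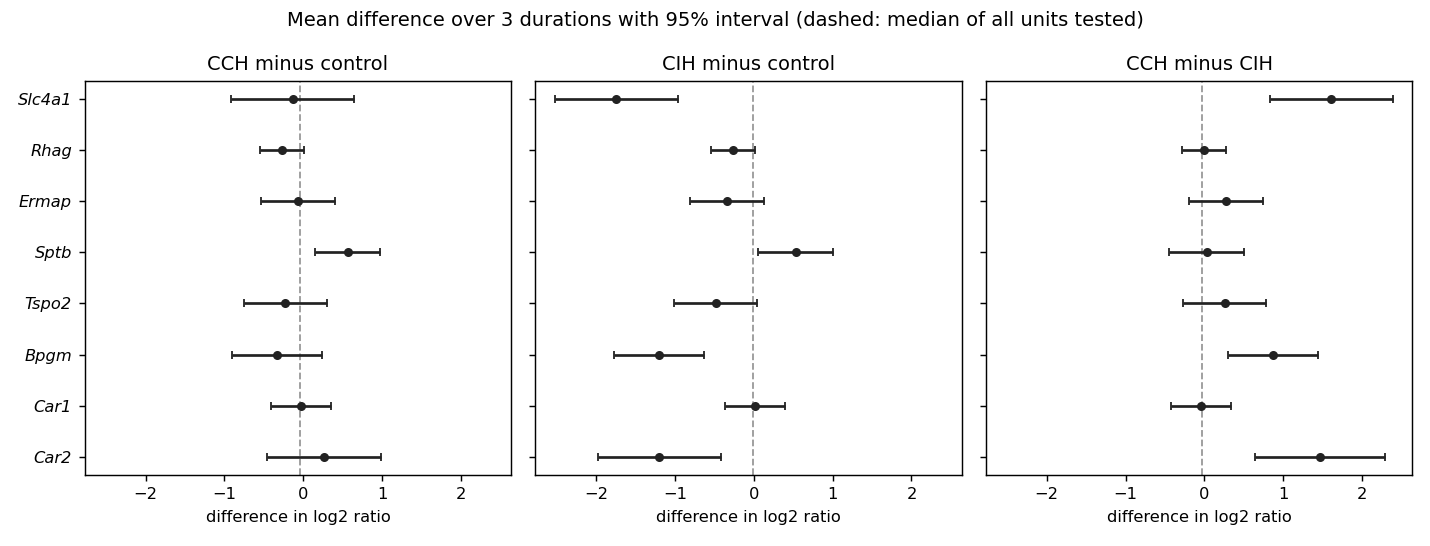
Mean difference in log2 ratio over the 3 durations (x axis) for the 8 genes, with 95% intervals of the fit and a dashed line at the median of all units. In CIH minus control, Slc4a1 is at -1.74, Bpgm and Car2 at -1.20 and Sptb at 0.53.

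The mean ratio of the 18 arrays was below 0 for 7 of 8 genes, beside 59.3% of all units. The median was -0.14 against -0.04 for all units. Rhag, at -0.21 ± 0.05 (SE, n = 18), was the 1 gene called by limma, beside 27.7% of all units, and 0 were called with CIH 4 weeks replicate 1 turned. Slc4a1 was at -0.33 ± 0.15 and Car2 at -0.37 ± 0.15 (SE, n = 18 and 15). Sex and dye cannot be told apart here, because each array held the male heart in Cy5.

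Across the arrays the 8 genes followed unlike courses. Slc4a1 and Bpgm had a Pearson r of 0.93 (Spearman rho 0.94, n = 18 arrays), and r was 0.89 without the 2 arrays farthest from the median of Slc4a1. Within conditions it was 0.95 in CCH, 0.93 in CIH and 0.70 in controls (n = 6 each). For Slc4a1 and Car2 r was 0.89 (rho 0.84, n = 15), 0.82 without the 2 farthest arrays, and 0.23 in controls (n = 6). CCH and CIH had fewer than 6 arrays with both genes. The control arrays thus carried little of the likeness between Slc4a1 and Car2. A second course joined Ermap with Tspo2 (r = 0.85, rho 0.80, n = 18), Ermap with Car1 (r = 0.81, rho 0.69) and Tspo2 with Car1 (r = 0.76, rho 0.63). Without the 2 farthest arrays these were 0.71, 0.68 and 0.55. Ermap and Car1 were alike in CCH (r = 0.97) and in controls (r = 0.91), and less so in CIH (r = 0.11), where the Car1 mean includes the spot with 1 value. Rhag was nearest to Tspo2 (r = 0.72, rho 0.69) and had an r of 0.27 with Slc4a1. Sptb was nearest to Car2, at r = 0.15 (n = 13), and had an r of -0.55 with Rhag (n = 16). These are descriptions over 18 arrays of 1 platform. The points share array, dye and centring, and 28 pairs were computed.

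**Figure D4:**
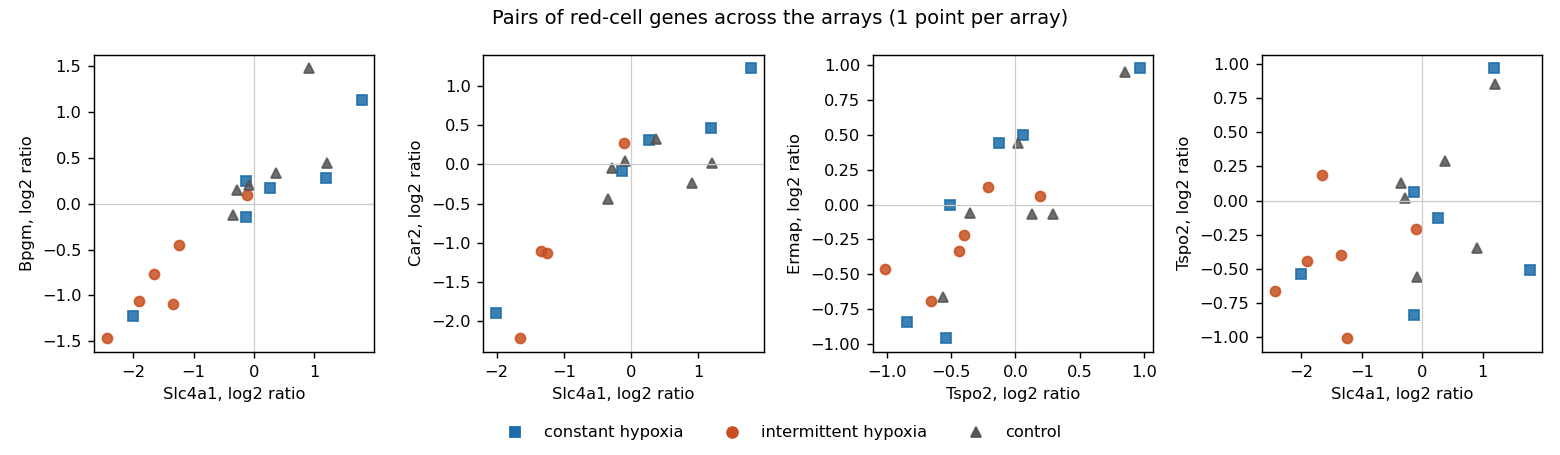
Log2 ratios of 4 pairs of genes, 1 point per array, by condition. Slc4a1 runs with Bpgm (r = 0.93) and Car2 (r = 0.89), and Tspo2 runs with Ermap (r = 0.85), while Slc4a1 against Tspo2 is looser (r = 0.47).

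The genes that lay nearest to each member were read from the same ratios. They are a further view of the correlations above and not a separate result. Members that are alike share neighbours, and members were counted too. Of 7579 named genes with values on at least 13 of the arrays of Slc4a1, the 50 with the highest r held 9 of 56 other red-cell genes and members. These included the mitochondrial iron importer Slc25a37 (r = 0.95), the reticulocyte ubiquitin enzyme Ube2o, Bpgm, the embryonic globin Hbb-bh1 and the mitophagy receptor Bnip3l. The rest were the heme synthesis gene Alas2, Isg20, the embryonic globin Hba-x and Mpp1. The 50 nearest to Bpgm also held 9, led by Alas2 (r = 0.97), and the 50 nearest to Car2 held 10 of 55 (7079 named genes compared). For Rhag, Ermap, Sptb and Tspo2 the 50 nearest held 0 of the 56, and for Car1 they held 1, Ermap. The 56 are a small share of the 7579 genes compared (7231 for Sptb), and counts of 0 are near that share. Past the first 50, the erythroid regulator gene Tal1 had an r of 0.88 with Tspo2 (position 100) and 0.86 with Ermap (position 165). Trim10 had one of 0.83 with Ermap (position 220), Lmo2 of 0.82 with Rhag (position 115) and Gypc of 0.67 with Sptb (position 172). These are picked high values, and other genes of the same lists lay near the opposite end. Pgk1 was at -0.87 with Ermap (position 7565) and at -0.83 with Tspo2 (position 7560). Abcb10 was at -0.59 with Rhag (position 7018) and Ube2l6 at -0.62 with Sptb (position 7140 of 7231). The split of the members into courses was made after the ratios were seen. Ermap lay nearest to Sft2d3, Syne4 and the transcription factor gene Tfap2a (r = 0.98, 0.97 and 0.97), and Tspo2 nearest to the deadenylase gene Parn (r = 0.97). Ermap had 320 genes with an r over 0.8 and Tspo2 388, while Slc4a1 had 197, Car1 23 and Sptb 12.

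**Figure D5:**
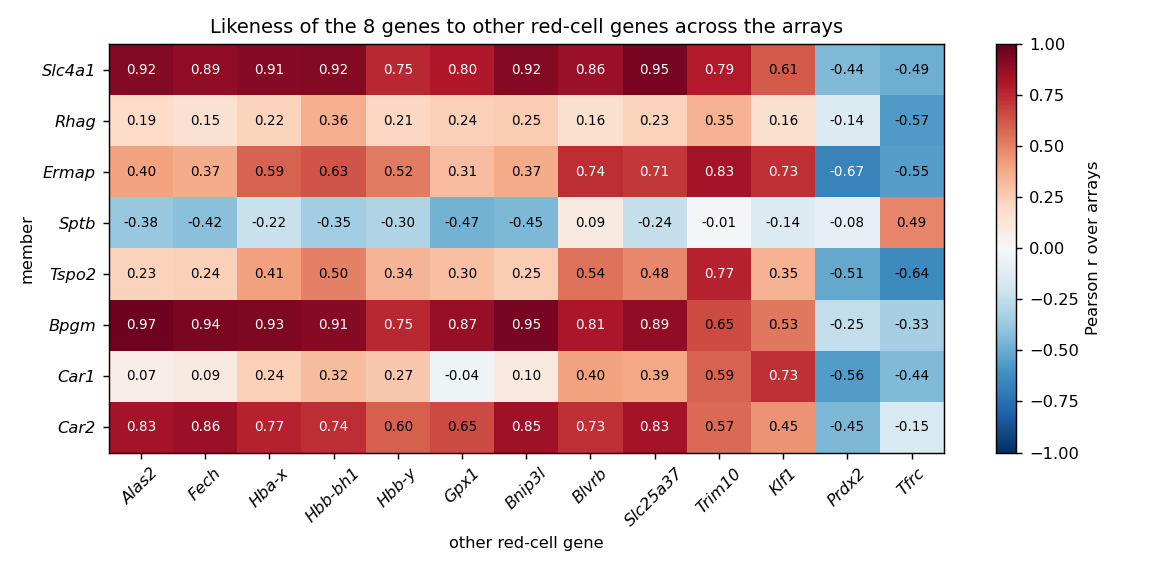
Pearson r over the arrays between each of the 8 genes (rows) and 13 other red-cell genes (columns), on a colour scale from -1 to 1. Slc4a1, Bpgm and Car2 have an r of 0.83 to 0.97 with Alas2 and Fech, and the other 5 genes one of -0.42 to 0.40. Bnip3l divides them likewise (0.85 to 0.95 against -0.45 to 0.37), as does Gpx1 (0.65 to 0.87 against -0.47 to 0.31). Not every other column does. Trim10 has an r of 0.79, 0.65 and 0.57 with Slc4a1, Bpgm and Car2, and of 0.83 and 0.77 with Ermap and Tspo2. With Rhag, Sptb and Car1 it has 0.35, -0.01 and 0.59.

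Other red-cell genes were compared by lists. For the counts of list genes lower in CIH, the share of all units below 0 was 50.9%. Of 12 globin genes 3 were tested, all embryonic, and all 3 were lower in CIH than in control (median -1.28): Hbb-bh1 at -1.52, Hba-x at -1.28 and Hbb-y at -0.84. In CCH minus control they were at -0.45, -0.25 and -0.64. Of 12 heme genes 11 were tested, and 7 were lower in CIH, with a median of -0.14. The first and the last enzyme of heme synthesis led it, Alas2 at -1.73 and Fech at -1.25, followed by Blvrb (-0.94), a reductase of heme breakdown. The intermediate enzymes Urod, Uros, Cpox and Ppox lay between -0.26 and 0.02, and Alad was at 0.49. Of 12 reticulocyte genes 8 were tested and 7 were lower in CIH (median -0.89), among them Isg20 at -1.65, Ube2l6 at -1.38, Bnip3l at -0.99 and Ube2o at -0.97. The transferrin receptor gene Tfrc was at 0.25. None of these genes was called by limma in the CIH comparison, nor were the genes of the lists that follow.

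Other membrane genes of red cells were divided. Of 22 on that list 12 were tested, 6 were lower in CIH and the median was -0.04. Mpp1, a scaffold of the membrane skeleton, was at -0.64 and Tmcc2 at -0.51, with an r of 0.89 and 0.85 with Slc4a1, and the skeleton genes Dmtn and Tmod1 at 0.04 and 0.20. Aqp1, a water channel of red cells and endothelium, was at 0.21 and the glycophorin gene Gypc at 0.40. Of 15 red-cell enzyme genes 9 were tested and 7 were lower (median -0.11). Blvrb, given above with the heme genes, is counted on this list too. The glutathione peroxidase gene Gpx1 was at -0.97 and the peroxiredoxin gene Prdx2 at -0.04. The membrane-bound carbonic anhydrase genes Car4 and Car14 were at -0.19 and -0.12. Of 11 erythroid regulators 7 were tested, 3 were lower and the median was 0.02, with Klf1 at 0.03 and Gata1 at 0.14. Klf1 had an r of 0.73 with Ermap and with Car1 and of 0.61 with Slc4a1 (n = 16), and of 0.51, 0.44 and 0.42 without the 2 farthest arrays.

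Markers of other cell types had list medians nearer 0 in the CIH comparison than the globin and reticulocyte lists. That did not hold for the remaining red-cell lists. Their medians were -0.14 (heme), -0.04 (other membrane), -0.11 (enzymes) and 0.02 (regulators), all nearer 0 than the platelet and leukocyte medians. The heme and enzyme medians were farther from 0 than the liver median. The platelet list was lower for 3 of 3 tested genes of 10 (median -0.27), the leukocyte list for 6 of 8 of 17 (-0.18) and the endothelial list for 4 of 5 of 8 (-0.11). All 3 liver genes tested of 4 were lower (-0.06), the lung gene Sftpb was at -0.23 and the cardiomyocyte gene Pln at 0.49, each the only tested gene of its list. In CCH minus control the platelet list was at -0.64 (3 of 3 lower) and the leukocyte list at -0.38 (8 of 8). The endothelial list was at -0.11 (4 of 5) and the liver list at 0.04 (1 of 3), beside 57.1% of all units below 0. By array, the leukocyte list median ran from -1.12 to -0.09 in CCH, from -0.73 to -0.15 in CIH and from -0.61 to 0.15 in controls. The platelet list median ran from -0.87 to -0.04 in CCH, from -0.48 to 0.58 in CIH and from -0.06 to 0.31 in controls. Their part in the ratios of the 8 genes was not tested.

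The genes most like the mean of the members were named by rule. That mean, over the 7 members with values on at least 16 arrays, had an r of 0.90 with Slc4a1, 0.85 with Ermap, 0.77 with Bpgm and 0.75 with Tspo2, but 0.43 with Rhag and -0.06 with Sptb. Of 6626 other named genes the 10 nearest were Adamts4, Mecr, AI837181, Zfp281, Asz1, Foxp4, Trim10, Adamts10, Blvrb and Tmem43, with r from 0.93 to 0.90. Trim10, a gene of terminal red-cell formation, and Blvrb are the 2 of them on a red-cell list. The 5 with the lowest r were Prmt5, Hmgb3, Dnajc7, Hspd1-ps3 and Ppm1g (-0.89 to -0.87). Their differences between CIH and control were small beside that of Slc4a1, from -0.64 for Zfp281 to -0.34 for Tmem43 among the 10 apart from Blvrb, and from 0.16 to 0.34 among the 5.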

How the data were processed

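The authors deposited 1 log2 ratio per spot and array, scaled so that the ratio averages 1 on the linear scale on each array, as seen in the values themselves. Male heart cDNA carried Cy5 and female heart cDNA Cy3, per the labels. Background correction, spot filter and normalization are not given in the sources used here. Of 28704 spots, 18511 carried 1 gene symbol in the platform annotation, and 12650 to 24512 had a value on an array.

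Each array was centred on its median, spots of 1 gene were averaged, and a unit was tested if each of the 9 groups had a value. A model of 9 group means was fitted with lmFit, contrasts.fit and eBayes of limma 3.58.1 (R 4.3.3), two-sided, with Benjamini-Hochberg adjustment over 10272 units and a threshold of 0.05. It was also run on simulated data whose noise was independent between arrays. Such data hold no effects shared by arrays, so nothing about the calls reported here is read from that run. The members and lists were chosen with earlier results of these data known. Named were the 8 members, the list genes with values on at least 9 arrays, and by likeness the 10 highest and 5 lowest genes. No 2 arrays were copies (highest r 0.743, between arrays of different groups). Between the 2 arrays of a group, r over spots ran from -0.038 to 0.686. Letters A and B in the titles gave replicates 1 and 2. Arrays of CCH at 1 and 2 weeks that carry no letter are replicate 1. Alternatives covered centring, quantile normalization, common spread, gaps, spots, the replicate block, duration, the regrouped array, the turned array and each array left out.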

Additional observations from a re-analysis of the deposited data

Results flagged for a closer look

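Bpgm on control 4 weeks replicate 2, at 1.48, stood apart from the other 5 control arrays: its gap to the nearest was 0.649 of their whole range, above the critical value of 0.625. It was 1 of 24 sets of arrays examined, and chance flags about 1 in 20. The value rested on spot 23901 (2.88) and not on spot 3390 (0.07).

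In CCH the hypoxia difference had opposite signs at different durations for 3 genes, with both hypoxic arrays above both controls at 1 week and below both later. The difference itself was not tested. Of all units, 20% lay above both controls at 1 week, and 33.5% and 22.7% below both at 2 and 4 weeks. The share of all units that did both was not computed, so nothing is read from the count of 3. Rhag was at 0.22 at 1 week, -0.50 at 2 weeks and -0.52 at 4 weeks. Ermap was at 0.82 at 1 week and -0.83 at 2 weeks, and Car1 at 0.85 and -0.76. For Rhag and Ermap the separation from controls at 1 week was narrow, as given above.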

How the results depend on the processing

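The differences of Slc4a1, Bpgm and Car2 between CIH and control and between CCH and CIH kept their sign under all alternatives tried (30 for Slc4a1 and Bpgm, 26 for Car2), as did those of Tspo2 and Ermap. Car1 kept its sign under 23 of 30 in CIH minus control, and in CCH minus control Slc4a1 kept it under 27, Ermap under 24 and Car1 under 22 of 30. The number of the 8 genes called in CIH minus control was 0 as reported, and it was 2 with no centring, with units on all arrays, with the median of spots, with each spot on its own and with the replicate block. In each of these the genes were Slc4a1 and Bpgm, and the units called were 192, 109, 115, 199 and 169, against 1. With 1 array left out, the number called ran from 0 to 3 in CIH minus control and in CCH minus CIH, from 0 to 2 in CIH minus control at 4 weeks, and from 1 to 3 for the mean ratio against 0. The highest value came without CCH 2 weeks replicate 1 in the first 3 of these comparisons, also without CCH 2 weeks replicate 2 in CIH minus control and in its 4-week value, and without CCH 2 weeks replicate 2 for the mean ratio. The mean ratio's count was 3 with quantile normalization, and 2 with no centring or with a common spread of the arrays (2656, 3537 and 2498 of 10272 units called). It was 0 with CIH 4 weeks replicate 1 turned (1354 units). The cause was not tested. Whether the A and B letters pair the arrays was not settled. Deviations of the replicates correlated from -0.548 to 0.447 over 36 pairs of groups, with a median of -0.038 and 15 above 0.1. Apart from CIH minus control, the replicate block changed no count of members called. It is approximate for genes with gaps. Car1 from its fuller spot, the turned array and the fit without the 2 arrays with disagreeing labels were chosen after the data were seen. The first and the last called the same numbers of members. Spot intensities were not used here, so signal over background is not given.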
